A study of Mus musculus with 16 samples.

Results

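The 10 genes described here encode the molecules that display peptides to T cells, and their levels were measured in the medial prefrontal cortex (mPFC) of 16 mice. They were picked by symbol with earlier results of these data known, and each of the 10 matched 1 of the 26625 entries of the gene table. B2m encodes beta-2-microglobulin, the light chain shared by class I molecules. H2-K1 and H2-D1 encode classical class I heavy chains, H2-T23 encodes the nonclassical heavy chain Qa-1, and Tapbp encodes tapasin, which holds empty class I molecules at the peptide transporter. Cd74 encodes the invariant chain of class II molecules, H2-Aa, H2-Ab1 and H2-Eb1 encode class II chains, and Ciita encodes the class II transactivator.

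Class I molecules are made by nearly all nucleated cells and carry peptides cut by the proteasome, pumped into the endoplasmic reticulum by the Tap1 and Tap2 transporter and loaded with the help of tapasin. Class II molecules are made mainly by professional antigen-presenting cells. They are escorted by the invariant chain to endosomes, where cathepsins degrade it and H2-DM exchanges its remnant for a peptide. In healthy brain parenchyma both sets are known to be low, with microglia and the macrophages of the brain's borders as the usual sources.

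The mice were male C57BL/6 animals of 8 to 10 weeks. All had received an adeno-associated virus in the mPFC of both hemispheres, so the controls carried a virus and a hairpin as well. The Kdm7a-shRNA mice (labelled shKDM7A, KDM7A knockdown) received pAAV-U6-shRNA(Kdm7a)-CMV-EGFP-WPRE, which carries a short hairpin RNA against Kdm7a, a histone lysine demethylase. The Ctrl mice (labelled shNC, WT) received the matching virus with a non-targeting hairpin. The U6 promoter does not restrict the hairpin to a cell type, and both viruses express EGFP. Morphine at 10 mg/kg or saline was given during 10 days of place conditioning, and the mPFC was collected on day 17, after 7 days of withdrawal. Saline was given to 3 mice with the control virus (Ctrl + Saline) and 5 with the hairpin against Kdm7a (Kdm7a-shRNA + Saline), and morphine to 4 with each virus (Ctrl + Morphine, Kdm7a-shRNA + Morphine). Full-length cDNA was sequenced on the Nanopore platform, and 6596991 to 12418112 reads per mouse were counted on genes. Levels are given as normalized CPM, the counts scaled to a common library size with edgeR's TMM factors (CPM), for 1 mouse at a time. Kdm7a itself was 9.42 ± 0.353 normalized CPM in Ctrl + Saline (SD, n = 3), 5.55 ± 0.571 in Kdm7a-shRNA + Saline (n = 5), 7.72 ± 1.13 in Ctrl + Morphine (n = 4) and 4.94 ± 1.53 in Kdm7a-shRNA + Morphine mice (n = 4). It was lower with the hairpin under saline (log2 fold change -0.76, adjusted p = 0.0153) and missed the threshold under morphine (-0.67, adjusted p = 0.0506), and its counts were 35 to 93 per mouse. Because whole tissue was sequenced, more cells of a type and more RNA per cell cannot be told apart in any value below.

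On the GRCm38 genome with the GENCODE vM21 annotation, 7 of the 10 genes lie on chromosome 17, where the mouse MHC is. H2-K1 is at chr17:33996017-34000347 and Tapbp at chr17:33915899-33929292. The class II genes follow with H2-Ab1 at chr17:34257689-34269419, H2-Aa at chr17:34282744-34287823 and H2-Eb1 at chr17:34305867-34316674. H2-D1 is at chr17:35262730-35267499 and H2-T23 at chr17:36029773-36032855. B2m is at chr2:122147686-122153083 and Ciita at chr16:10480059-10528418. All 10 are annotated as protein-coding genes.

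MHC promoters are known for a shared module in which an X2 element, bound by CREB family factors, stands upstream of a Y box, bound by NF-Y, and Ciita is recruited to such modules without touching DNA. Promoters of 7 of the 10 genes were used from the RefSeq table of GRCm38.p6 promoters. The bases just before the annotated start are shown for 1 light chain, 1 class I heavy chain and 2 class II chains, because for these 4 of the 7 the bases before the start are largely free of annotated exons. In H2-D1, H2-T23 and Tapbp the 150 bases before the RefSeq start all lie in GENCODE exons, and these windows are not shown. Capitals mark the Y box (ATTGG), the X2-like element (TGACG), the ISRE-like element (GAAANNGAA) and the kappa B-like element (GGGGATTCC), each searched on both strands. Sequences run 5′ to 3′ on the strand of the gene and cover the 150 bases before the start, less bases in an annotated exon. B2m is chr2:122147537-122147685 (plus strand), H2-K1 chr17:34000348-34000497 (minus strand), H2-Aa chr17:34287824-34287973 (minus strand) and H2-Eb1 chr17:34305721-34305866 (plus strand).
B2m: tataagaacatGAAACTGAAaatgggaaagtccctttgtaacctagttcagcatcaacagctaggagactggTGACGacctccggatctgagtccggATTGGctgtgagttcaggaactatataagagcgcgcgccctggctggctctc
H2-K1: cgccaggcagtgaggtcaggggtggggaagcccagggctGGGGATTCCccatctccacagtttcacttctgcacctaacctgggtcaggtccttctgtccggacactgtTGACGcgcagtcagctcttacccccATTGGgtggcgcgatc
H2-Aa: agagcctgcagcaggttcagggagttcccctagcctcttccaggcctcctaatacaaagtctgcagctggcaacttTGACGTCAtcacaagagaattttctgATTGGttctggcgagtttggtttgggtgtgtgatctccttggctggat
H2-Eb1: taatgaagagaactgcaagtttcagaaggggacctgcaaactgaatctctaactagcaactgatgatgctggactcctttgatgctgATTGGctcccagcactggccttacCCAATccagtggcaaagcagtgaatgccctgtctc
B2m had an X2-like element that began at -78 and a Y box that began at -53, counted from the start. H2-Aa had the same pair at -74 and -48, where the X2-like letters are part of a palindrome and match on both strands. In H2-K1 the pair began at -41 and -16. H2-Eb1 had Y boxes at -59 and -35 on opposite strands and no TGACG. Over the 250 bases before the start, the Y box letters were in 7 of the 7 genes, the 3 with exons in the window included, and in 33.8% of all 32851 promoters of the table. The X2-like letters were in 4 of the 7 (B2m, H2-K1, H2-D1 and H2-Aa) and in 17.8% of all promoters. The ISRE-like letters were in B2m and H2-T23, and in 7.13% of all. The kappa B-like letters were in H2-K1 and H2-D1, and in 0.213% of all, with no overlap between different elements in any of the 7 genes. These matches are descriptions of the letters and were not tested as binding sites.

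With the Kdm7a hairpin, 9 of the 10 genes had a higher mean level than with the control virus in both treatments, and the mice with the highest levels were not the same for class I and class II genes. Under saline, 2 of the 10 passed, against 16.7% of all tested genes, and these were Tapbp and H2-D1, which rose 2.40-fold and 2.74-fold. Under morphine, 1 passed, against 7.69% of all tested genes, and this was Cd74, which rose 4.53-fold. Both counts are near those shares, and each of the 3 calls was lost when certain single mice were left out. The class II chains had log2 fold changes of 1.78 to 2.06 under morphine without passing. The knockdown effect averaged over both treatments was a comparison added once the data were known. In it 9 of the 10 genes passed and were higher, against 17.6% of all tested genes passing, and the remaining gene was Ciita. The 10 genes were chosen with earlier results of these data known, and genes of a class moved together over mice. The 9 calls are therefore neither a test of the set nor 9 separate findings. Morphine itself moved none of the 10 genes past the test. A gene passed with an adjusted p under 0.05 from edgeR's quasi-likelihood test and a fold change of at least 1.5, over 18826 tested genes, and all 10 were tested.

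B2m was at 494, 468 and 465 normalized CPM in the Ctrl + Saline mice and at 532, 142, 342 and 362 in the Ctrl + Morphine mice. It was at 794, 1090, 1607, 467 and 1217 in the Kdm7a-shRNA + Saline mice and at 853, 545, 1266 and 347 in the Kdm7a-shRNA + Morphine mice. In each Kdm7a-shRNA group replicate 4 lay within the range of the Ctrl mice given the same treatment and the other mice lay above it. The log2 fold change was 1.12 (SE 0.422, adjusted p = 0.0680) under saline and 1.13 (SE 0.397, adjusted p = 0.0798) under morphine. Neither passed.

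H2-K1 was at 504, 305 and 295 normalized CPM in Ctrl + Saline, and at 764, 145, 348 and 435 in Ctrl + Morphine mice. With the hairpin it was at 973, 1096, 1519, 361 and 1012 under saline, and at 789, 481, 1275 and 284 under morphine. Under saline 4 of 5 Kdm7a-shRNA mice exceeded every Ctrl mouse, whereas under morphine the groups overlapped widely. The log2 fold change was 1.43 (SE 0.510, adjusted p = 0.0554) under saline and 0.74 (SE 0.469, adjusted p = 0.346) under morphine.

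H2-D1 was at 1361, 713 and 744 normalized CPM in Ctrl + Saline, and at 1656, 334, 965 and 1021 in Ctrl + Morphine mice. With the hairpin it was at 2606, 2755, 3897, 1006 and 2576 under saline, and at 2190, 1418, 2949 and 687 under morphine. Replicate 4 of each Kdm7a-shRNA group was again the low mouse of its group, inside the Ctrl range. H2-D1 rose under saline (log2 fold change 1.45, SE 0.492, adjusted p = 0.0449), and its value under morphine was 0.87 (SE 0.453, adjusted p = 0.242). The call under saline was lost without any 1 of 6 of the 8 mice, with adjusted p-values of 0.0644 to 0.171, and it was kept without Ctrl + Saline replicate 1 or Kdm7a-shRNA + Saline replicate 4.

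H2-K1 and H2-D1 are close copies of each other. Their longest GENCODE protein-coding transcripts were identical at 90.3% of 1475 aligned bases, against 83.7% for H2-K1 and H2-T23, and how the authors assigned reads that match both is not given in the sources used here. The division of reads between these paralogs is therefore uncertain.

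H2-T23 had a narrower range. It was at 264, 237 and 202 normalized CPM in Ctrl + Saline, at 303, 125, 205 and 192 in Ctrl + Morphine, at 367, 483, 683, 245 and 475 in Kdm7a-shRNA + Saline, and at 449, 315, 582 and 168 in Kdm7a-shRNA + Morphine mice. All but replicate 4 of each Kdm7a-shRNA group exceeded every Ctrl mouse of the same treatment. The log2 fold change was 0.94 (SE 0.351, adjusted p = 0.0654) under saline and 0.88 (SE 0.331, adjusted p = 0.103) under morphine, and neither passed.

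Tapbp was at 25.9, 22.3 and 16.6 normalized CPM in Ctrl + Saline and at 44.7, 62.4, 73.9, 27.6 and 50.6 in Kdm7a-shRNA + Saline mice. It was the only one of the 10 genes for which these 2 groups did not overlap, and 11.1% of all tested genes had every Kdm7a-shRNA + Saline mouse above every Ctrl + Saline mouse. It rose with a log2 fold change of 1.26 (SE 0.346, adjusted p = 0.0169). The call was lost without Ctrl + Saline replicate 2 (adjusted p = 0.0543) or replicate 3 (adjusted p = 0.0975). Under morphine Tapbp was at 28.5, 17.3, 24.6 and 22.4 in Ctrl and at 37.7, 28.4, 72.0 and 21.6 in Kdm7a-shRNA mice, which overlapped, with a log2 fold change of 0.79 (SE 0.322, adjusted p = 0.129).

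**Figure D1:**
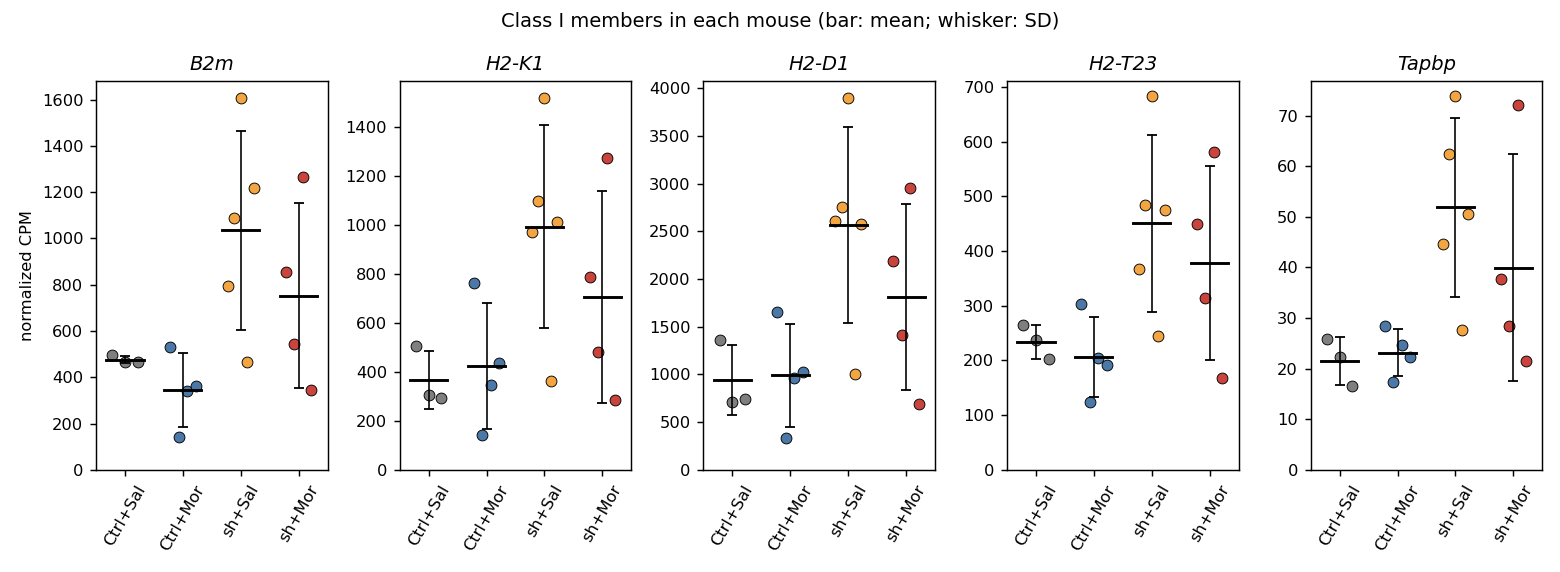
Normalized CPM (vertical axis) of the 5 class I genes in each of the 16 mice (points, left to right by replicate number within a group), with group means (bars) and SDs (whiskers). Sal is saline, Mor is morphine, Ctrl is the control virus and sh is the Kdm7a hairpin. In both hairpin groups the fourth point (replicate 4) is the lowest, and for B2m under saline it is at 467 against 465 to 494 in the controls.

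Among the class II genes the highest mouse of each Kdm7a-shRNA group was replicate 1, whereas it was replicate 3 for the class I genes. In the Ctrl + Morphine mice, by contrast, Cd74 had the same order as B2m, H2-K1 and H2-D1. Cd74 was at 47.6, 54.1 and 9.54 normalized CPM in Ctrl + Saline and at 36.7, 8.64, 17.2 and 23.2 in Ctrl + Morphine mice. It was at 118, 49.4, 74.4, 42.0 and 57.4 in Kdm7a-shRNA + Saline and at 224, 90.5, 51.2 and 24.8 in Kdm7a-shRNA + Morphine mice. Kdm7a-shRNA + Morphine replicate 1 was the highest of all 16 mice and replicate 4 lay inside the Ctrl + Morphine range. Cd74 rose under morphine (log2 fold change 2.18, SE 0.601, adjusted p = 0.0300) and was at 0.87 under saline (SE 0.611, adjusted p = 0.331). The call under morphine was lost without Kdm7a-shRNA + Morphine replicate 1 (log2 fold change 1.37, adjusted p = 0.141), without Ctrl + Morphine replicates 2, 3 or 4 (adjusted p = 0.0662, 0.0847 and 0.0821), and in a fit of the 2 groups alone (adjusted p = 0.0633).

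H2-Ab1, the beta chain of the I-A molecule, was at 168, 207 and 49.0 normalized CPM in Ctrl + Saline and at 175, 23.9, 74.4 and 124 in Ctrl + Morphine mice. It was at 329, 169, 264, 163 and 247 in Kdm7a-shRNA + Saline and at 858, 404, 228 and 73.8 in Kdm7a-shRNA + Morphine mice. Within the last group the highest mouse stood far above the lowest, and the lowest was inside the range of the Ctrl + Morphine mice. The log2 fold change was 1.98 under morphine (SE 0.613, adjusted p = 0.0509) and 0.73 under saline (SE 0.627, adjusted p = 0.436).

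H2-Aa, the alpha chain that pairs with it, was at 23.1, 26.8 and 4.24 normalized CPM in Ctrl + Saline, at 22.7, 2.88, 13.6 and 12.2 in Ctrl + Morphine, at 45.2, 18.2, 33.4, 20.02 and 31.7 in Kdm7a-shRNA + Saline, and at 130, 52.8, 23.97 and 9.53 in Kdm7a-shRNA + Morphine mice. H2-Eb1, the beta chain of the I-E molecule, was at 89.6, 81.4 and 21.9 in Ctrl + Saline, at 74.0, 18.7, 46.1 and 35.2 in Ctrl + Morphine, at 160, 65.1, 94.4, 61.3 and 103 in Kdm7a-shRNA + Saline, and at 335, 151, 84.8 and 28.9 in Kdm7a-shRNA + Morphine mice. Both followed Cd74 in having Ctrl + Saline replicate 3 and Ctrl + Morphine replicate 2 as the low control mice and Kdm7a-shRNA + Morphine replicate 1 as the high mouse. Their log2 fold changes were 2.06 (SE 0.666, adjusted p = 0.0599) and 1.78 (SE 0.579, adjusted p = 0.0613) under morphine, and 0.71 (adjusted p = 0.495) and 0.59 (adjusted p = 0.512) under saline. The I-E alpha chain H2-Ea, which C57BL/6 mice are known not to make, had no row in the table.

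Ciita had 1 to 20 counts per mouse, so its levels are imprecise. It was at 2.64, 1.17 and 0.133 normalized CPM in Ctrl + Saline, at 1.10, 0.320, 0.365 and 0.321 in Ctrl + Morphine, at 1.03, 0.461, 0.711, 0.450 and 0.101 in Kdm7a-shRNA + Saline, and at 1.69, 2.04, 0.773 and 0.134 in Kdm7a-shRNA + Morphine mice. All 4 groups overlapped. The log2 fold change with the hairpin was -1.25 under saline (SE 0.743, adjusted p = 0.248) and 1.07 under morphine (SE 0.745, adjusted p = 0.397), and a difference was not detectable at this depth.

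**Figure D2:**
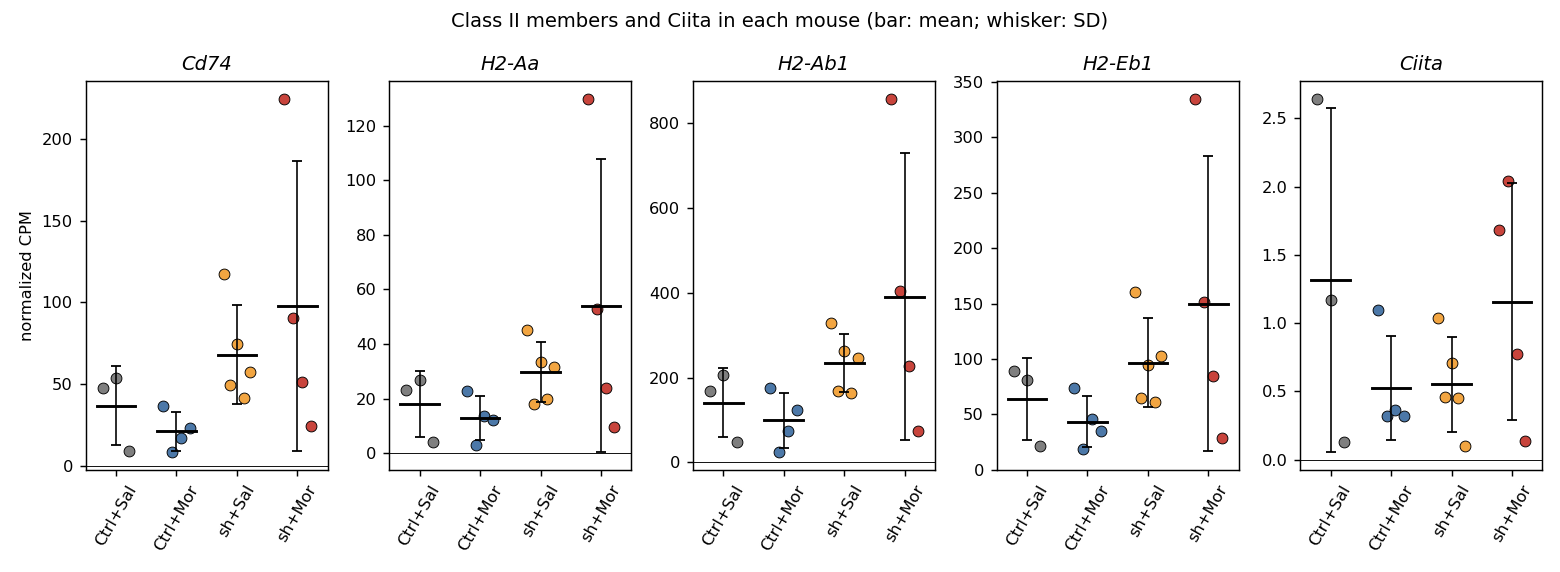
Normalized CPM (vertical axis) of the 4 class II genes and Ciita in each of the 16 mice (points, left to right by replicate number within a group), with group means (bars) and SDs (whiskers). The first Kdm7a-shRNA + Morphine mouse is the highest point for Cd74 (224), H2-Aa (130), H2-Ab1 (858) and H2-Eb1 (335).

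Of the 10 genes, 1 passed for knockdown under morphine, where 7.69% of all tested genes passed. An unadjusted p under 0.05 was found for 7 of the 10 and for 25.5% of all tested genes. All 10 had a log2 fold change above 0 there, from 0.74 to 2.18 with a median of 1.10. For knockdown under saline 2 passed, against 16.7% of all tested genes, with 9 values above 0 and a median of 0.91. An unadjusted p under 0.05 was found for 5 of the 10 and for 34.7% of all tested genes. The counts that passed, 1 and 2 of 10, were near the shares of all tested genes that passed. The median of all tested genes was near 0 in both comparisons (-0.0045 and 0.015). Under morphine none of the 10 had every Kdm7a-shRNA mouse above every Ctrl mouse, a separation that 6.37% of all tested genes showed. Leaving out 1 mouse at a time moved the count under morphine between 0 (without Kdm7a-shRNA + Morphine replicate 1 or without any of Ctrl + Morphine replicates 2 to 4) and 7 (without Kdm7a-shRNA + Morphine replicate 4), with 2 without Ctrl + Morphine replicate 1. Under saline it moved between 0 (without Ctrl + Saline replicate 2 or 3) and 5 (without Kdm7a-shRNA + Saline replicate 4), with 1 without any other Kdm7a-shRNA + Saline mouse.

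The comparisons under saline and under morphine rest on different mice, and the mean of their knockdown effects was taken from the same fit. In this average, a comparison added once the data were known, 9 of the 10 passed, against 17.6% of all tested genes. Because the genes were also chosen with earlier results known and are correlated within a class, this count is not a test of the set. Tapbp had a log2 fold change of 1.03 (SE 0.236, adjusted p = 0.00366) and B2m of 1.12 (SE 0.290, adjusted p = 0.00780). H2-T23 was at 0.91 (adjusted p = 0.00940), H2-D1 at 1.16 (adjusted p = 0.0150) and H2-K1 at 1.09 (adjusted p = 0.0257). The class II genes were higher by 1.53 for Cd74 (SE 0.432, adjusted p = 0.0137), 1.35 for H2-Ab1 (adjusted p = 0.0296), 1.38 for H2-Aa (adjusted p = 0.0392) and 1.19 for H2-Eb1 (adjusted p = 0.0418). Ciita was at -0.09 (SE 0.534, adjusted p = 0.923). The count was 5 without Ctrl + Morphine replicate 3 or without Ctrl + Saline replicate 3. With 1 of the 16 mice left out at a time, Tapbp, B2m, H2-T23, H2-D1 and Cd74 passed in all 16 fits, H2-Ab1 in 13 and H2-K1 in 12. H2-Aa and H2-Eb1 passed in only 6 each (adjusted p up to 0.120 and 0.124), and both lost the call with library size only (adjusted p = 0.0533 and 0.0594).

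**Figure D3:**
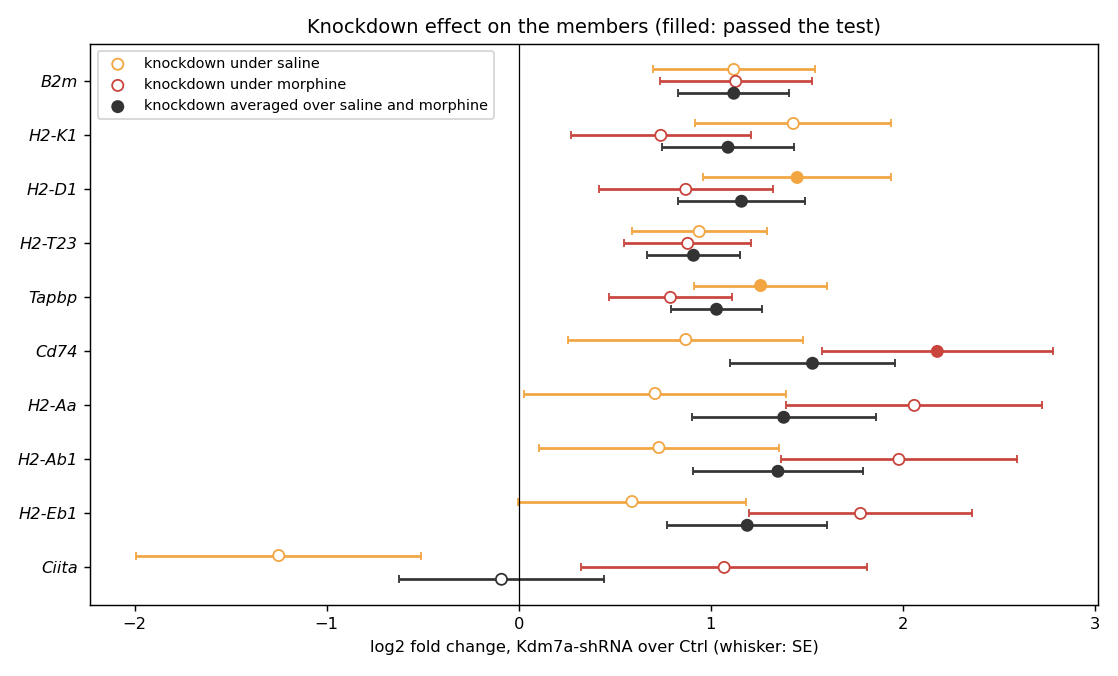
Log2 fold change of Kdm7a-shRNA over Ctrl mice (horizontal axis, whiskers are SEs) for the 10 genes under saline, under morphine and averaged over both, with filled points for genes that passed the test. The class I genes lie between 0.74 and 1.45, and the 4 class II genes lie further right under morphine (1.78 to 2.18) than under saline (0.59 to 0.87), a difference that no interaction test called.

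Morphine was compared with saline within each virus. With the control virus, 0 of the 10 passed edgeR's quasi-likelihood test, against 0% of all tested genes. At an unadjusted p under 0.05 there were 0 of the 10, against 11.7% of all tested genes. DESeq2's Wald test called 0 of the 10 and 185 of all tested genes. The log2 fold changes ran from -1.27 for Ciita to 0.20 for H2-K1. With the hairpin, 0 passed by either tool, against 0.00531% of all tested genes by edgeR and 20 genes by DESeq2. Of the 10 genes 0 had an unadjusted p under 0.05, against 7.02% of all tested genes. The values ran from -0.50 for H2-D1 to 1.05 for Ciita. Class I genes had values of -0.50 to -0.25 and class II genes of 0.52 to 0.85 in this comparison.

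Whether the knockdown effect differed between morphine and saline was tested with the interaction term. None of the 10 passed edgeR's test or DESeq2's, against 0.085% of all tested genes by edgeR and 217 genes by DESeq2. An unadjusted p under 0.05 was found for 1 of the 10 and for 10.7% of all tested genes. The class II genes had interaction values of 1.19 to 1.35 on the log2 scale (adjusted p = 0.618 to 0.646). The class I genes had values of -0.69 for H2-K1 to 0.01 for B2m (adjusted p = 0.785 to 0.998). Ciita had the value with the smallest p, 2.32 (SE 1.05, unadjusted p = 0.0407, adjusted p = 0.432). The larger class II values under morphine were therefore not shown to differ from those under saline.

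The 10 genes varied more between mice of a group than most genes. Their SD of log2 CPM within groups was 0.53 for Tapbp to 1.22 for H2-Aa, against a median of 0.338 over all 18826 tested genes and of 0.236 over the upper 9413 by level. The 4 class II genes and Ciita, with SDs of 1.02 to 1.22, each exceeded over 97% of tested genes, which limits what 3 to 5 mice per group can show.

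With group means removed, the genes fell into sets that moved together over the 16 mice. Pearson's r was 0.868 to 0.989 for the 10 pairs of class I genes, 0.949 to 0.978 for the 6 pairs of class II genes and 0.388 to 0.684 for the 20 pairs of a class I with a class II gene. Ciita had r of 0.734 to 0.816 with the class II genes and 0.269 to 0.477 with the class I genes. These are descriptions of genes that were measured in the same library, at the same depth, within each of the 16 mice. Permutation tests were run for 9 pairs, adjusted over the 9. H2-K1 and H2-D1 had r = 0.989 and rho = 0.971 (adjusted permutation p = 2.25e-05, r = 0.980 without the 2 mice farthest from the median of H2-K1). How reads that match both of these paralogs were divided is uncertain, and the part of such reads in this value was not tested. B2m had r = 0.962 with H2-K1 (rho = 0.909, adjusted permutation p = 2.25e-05, r = 0.929 without 2 mice) and 0.948 with H2-D1 (rho = 0.874, adjusted permutation p = 7.5e-05, r = 0.902 without 2 mice). Cd74 had r = 0.972 with H2-Aa (rho = 0.965, adjusted permutation p = 7.2e-05, r = 0.958 without 2 mice) and 0.961 with H2-Ab1 (rho = 0.959, adjusted permutation p = 2.25e-05, r = 0.954 without 2 mice). Between the classes, B2m and Cd74 had r = 0.469 (rho = 0.371, adjusted permutation p = 0.107, r = 0.323 without 2 mice), which did not pass.

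**Figure D4:**
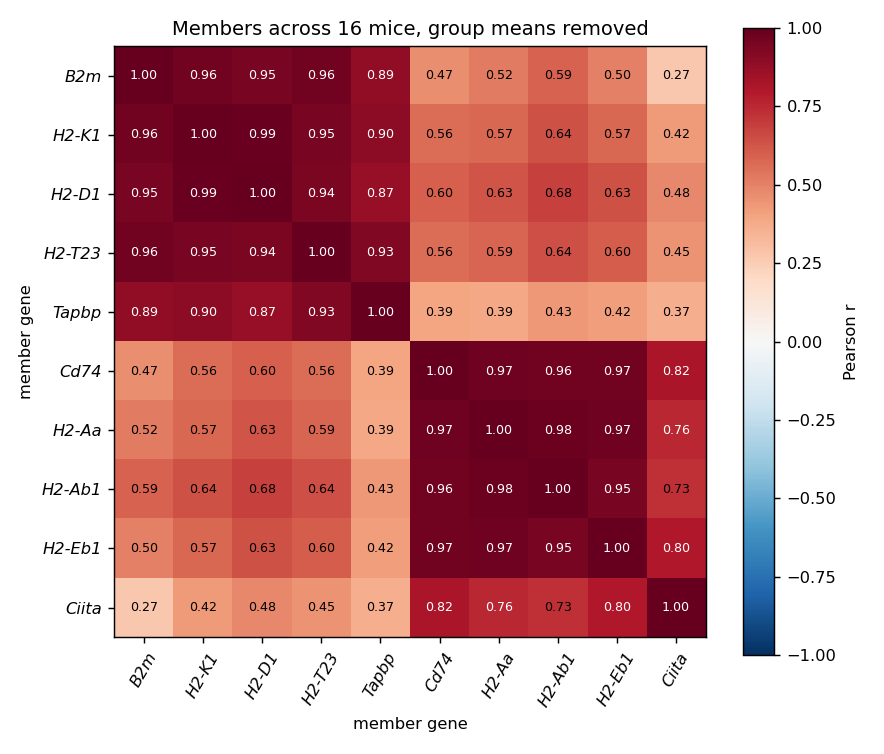
Pearson's r between the 10 genes over 16 mice after group means of log2 CPM were removed (both axes list the genes, the colour scale runs from -1 to 1 and each cell prints its r). A block of 5 class I genes (0.868 and above) and a block of 4 class II genes (0.949 and above) stand out, and pairs across the blocks are at 0.388 to 0.684.

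Among 14161 known genes, those most like B2m by this measure were Cd52 (r = 0.989), the interferon-induced GTPases Irgm1 (0.985) and Gbp3 (0.984), Lgals3bp (0.979) and Ifitm3 (0.977). Those most like Cd74 were H2-Aa (0.972), H2-Eb1 (0.966), H2-Ab1 (0.961), the kinase gene Pim1 (0.915) and Irf4 (0.913), a transcription factor of lymphocytes and dendritic cells. Beyond these, and named after their values were seen, Nrf1 was at rank 6 (r = 0.888) and Cxcl9 at rank 7 (0.846). The B cell receptor gene Cd79a was at rank 8 (0.846) and Mzb1, a gene of B and plasma cells, at rank 9 (0.835). With the hairpin, Cd79a had a log2 fold change of -0.86 under morphine (adjusted p = 0.621), and its group means were only 0.687 to 1.17 normalized CPM. The B2m neighbour Irgm1 was not called with the hairpin (log2 fold change 0.06, adjusted p = 0.925 under saline, and 0.24, adjusted p = 0.728 under morphine). Of a list of 15 interferon-induced genes, 0 passed edgeR's or DESeq2's test under morphine or saline, with 0 and 2 at an unadjusted p under 0.05. Of all tested genes 7.69% and 16.7% passed edgeR's test, and 25.5% and 34.7% had an unadjusted p under 0.05. Under morphine 12 of the 15 had a log2 fold change above 0, with a median of 0.24. Under saline 14 did, with a median of 0.60. In the average 1 passed, Ifi27l2a (log2 fold change 1.25, adjusted p = 0.0343), against 17.6% of all tested genes. There 13 of the 15 were above 0, with a median of 0.47.

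Of 47 further genes of the pathway, 43 could be tested. Under morphine 7 passed and all were higher, against 7.69% of all tested genes passing, with a median log2 fold change of 0.50 over the 43 genes. Under saline 10 passed, all higher, against 16.7% of all tested genes, with a median of 0.60. In the average 15 passed, all higher, against 17.6%, with a median of 0.60. Nothing particular to the pathway was tested by these counts. Leaving out 1 mouse moved these counts between 0 (without Kdm7a-shRNA + Morphine replicate 3) and 12 (without Kdm7a-shRNA + Morphine replicate 4) under morphine. Without Ctrl + Morphine replicates 2, 3 or 4 it was 2, 1 and 1, and without Kdm7a-shRNA + Morphine replicate 1 it was 3. Under saline the range was 2 (without Ctrl + Saline replicate 3) to 11 (without Kdm7a-shRNA + Saline replicate 4), with 6 and 4 without Ctrl + Saline replicates 1 and 2 and 4 and 5 without Kdm7a-shRNA + Saline replicates 3 and 5.

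Of the genes of class II editing and lysosomal processing, 6 of 8 tested passed under morphine, against 7.69% of all tested genes, and 5 of 8 under saline, against 16.7%, counts that ran from 0 to 7 and from 1 to 6 without 1 mouse. H2-DMa, a chain of the peptide editor H2-DM, rose by log2 fold changes of 0.85 (adjusted p = 0.0126) under morphine and 0.73 (adjusted p = 0.0184) under saline. Ctsl, a cathepsin, rose by 1.13 (adjusted p = 0.0276) and 1.46 (adjusted p = 0.00598). H2-DMb1, the partner of H2-DMa, rose by 1.44 under morphine (adjusted p = 0.0300) and was at 1.07 under saline (adjusted p = 0.0762). H2-Ob, a chain of H2-DO that restrains H2-DM, rose by 1.94 (adjusted p = 0.0455) under morphine and 2.48 (adjusted p = 0.0126) under saline.

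For class I, Mr1, which presents vitamin B metabolites, rose by 1.31 under morphine (adjusted p = 0.0173) and 1.04 under saline (adjusted p = 0.0339), and Fcgrt, the neonatal Fc receptor, rose by 0.76 under saline (adjusted p = 0.0352). These were the calls among 12 tested class I and class I-like heavy chains, 1 under morphine and 2 under saline. Such counts are close to the shares of all tested genes that passed, 7.69% and 16.7%. Of 7 transport and loading genes, 0 passed edgeR's test under morphine (0 by DESeq2) and 2 under saline, against the same shares. Under morphine 1 of the 7 had an unadjusted p under 0.05, against 25.5% of all tested genes. The 2 under saline were Pdia3, a chaperone of class I loading (1.47, adjusted p = 0.00129), and Erap1, which trims peptides (0.99, adjusted p = 0.0260). The peptide transporter subunits Tap1 and Tap2 were at 0.50 and 0.83 under saline and at 0.20 and 0.50 under morphine, none of them called. Of the 5 immunoproteasome and activator genes, 1 passed under saline, against 16.7% of all tested genes. This was Psme1 (0.85, adjusted p = 0.0216).

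None of 11 transcription regulators of MHC genes passed edgeR's or DESeq2's test under morphine or saline. Of all tested genes 7.69% and 16.7% passed edgeR's. An unadjusted p under 0.05 was found for 1 of the 11 in each treatment, against 25.5% and 34.7% of all tested genes. Nlrc5, the class I transactivator, was at 0.83 under saline (adjusted p = 0.254) and 0.38 under morphine (adjusted p = 0.666). Rfx5, a subunit of the X box factor RFX, was at 0.21 (adjusted p = 0.363) under saline and -0.42 (adjusted p = 0.0861) under morphine.

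Markers of microglia moved with the same comparisons. Of 12 microglial markers, 8 passed and were higher under morphine and 11 under saline, against 7.69% and 16.7% of all tested genes passing. All 12 markers had a log2 fold change above 0 in both treatments. Their summed level was 1381 to 1981 normalized CPM in Ctrl + Saline, 806 to 1697 in Ctrl + Morphine, 2948 to 8929 in Kdm7a-shRNA + Saline and 1966 to 8704 in Kdm7a-shRNA + Morphine mice, and the hairpin groups did not overlap their controls. Without 1 mouse the counts were 2 (without Kdm7a-shRNA + Morphine replicate 3) to 11 under morphine, with 3 without any of Ctrl + Morphine replicates 2 to 4 and 4 without Kdm7a-shRNA + Morphine replicate 1. Under saline they were 5, 3 and 4 without Ctrl + Saline replicates 1, 2 and 3, 7, 6 and 7 without Kdm7a-shRNA + Saline replicates 2, 3 and 5, and 11 or 12 without the others. The 5 class I genes summed to 1722 to 2650 in Ctrl + Saline, 762 to 3283 in Ctrl + Morphine, 2107 to 7779 in Kdm7a-shRNA + Saline and 1508 to 6144 in Kdm7a-shRNA + Morphine mice. Divided by the microglial sum, their median was 1.26, 1.29, 0.870 and 0.883 in these groups, with ranges of 0.869 to 1.49, 0.946 to 1.93, 0.715 to 1.13 and 0.706 to 1.30 that overlapped. The 4 class II genes divided by the microglial sum had medians of 0.184, 0.114, 0.0616 and 0.160, with 0.0446 to 0.464 in Kdm7a-shRNA + Morphine mice. B2m followed the microglial receptor gene Csf1r over mice (r = 0.883, rho = 0.903, adjusted permutation p = 2.25e-05, r = 0.896 without 2 mice). Many genes followed B2m more closely, as Tapbp with r = 0.888 was only at rank 238 of 14161 known genes. Cd74 had r = 0.261 with Csf1r (rho = 0.238, adjusted permutation p = 0.462, r = 0.294 without 2 mice), which did not pass. The part of microglial cell number in the class I and class II values was not tested.

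**Figure D5:**
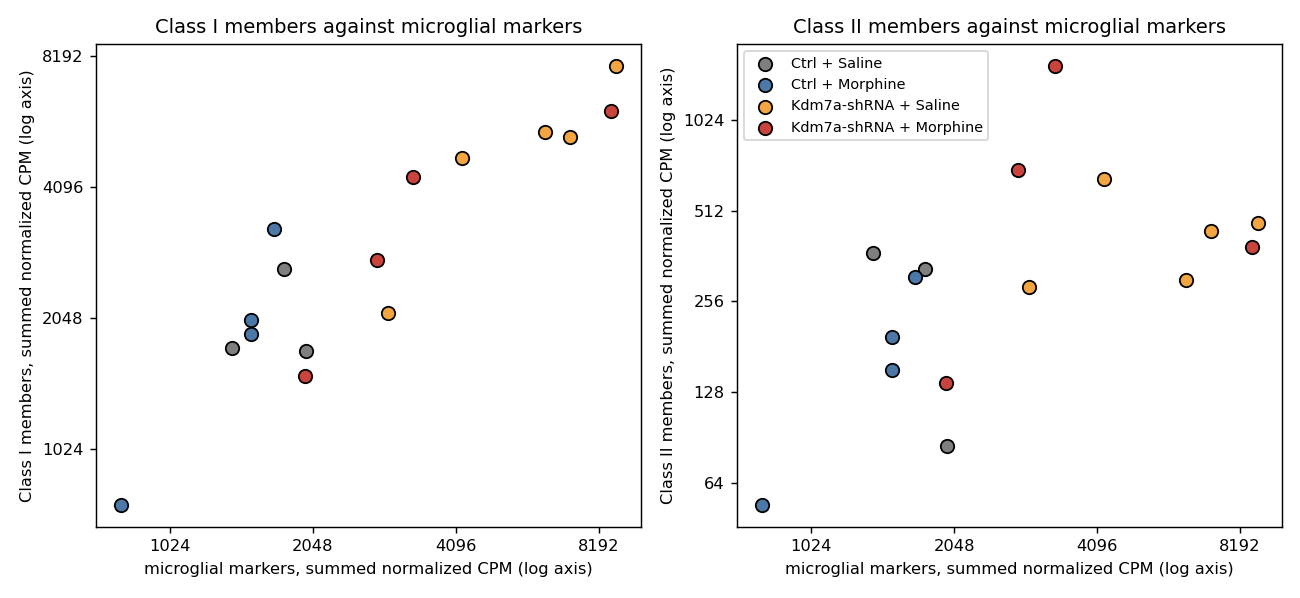
Summed normalized CPM of the 5 class I genes (left) and of the 4 class II genes (right) against the summed normalized CPM of 12 microglial markers, 1 point per mouse, all axes logarithmic, coloured by group. Class I sums rise along with the microglial sums, whereas the mouse with the highest class II sum (1548) has a microglial sum of 3333 and the Kdm7a-shRNA + Morphine mouse with the highest microglial sum (8704) has a class II sum of 388.

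Markers of border-associated macrophages, lymphocytes and dendritic cells were also compared. Of all tested genes 7.69% passed edgeR's test under morphine and 16.7% under saline, and 25.5% and 34.7% had an unadjusted p under 0.05. Of 6 tested markers of border-associated macrophages, 0 passed edgeR's or DESeq2's test under either treatment (1 and 0 at an unadjusted p under 0.05 under morphine and saline), and the whole list summed to 8.75 to 37.0 normalized CPM over the 16 mice. These 6 had a median log2 fold change of 0.58 under morphine, with 6 above 0, and of 0.34 under saline, with 5 above 0. Cd74 had r = 0.328 with the macrophage receptor gene Mrc1 (rho = 0.265, adjusted permutation p = 0.449, r = 0.411 without 2 mice). Of 4 tested T cell markers 0 passed by either tool, with 1 and 0 at an unadjusted p under 0.05, and the whole list summed to 2.52 to 13.5. The 4 had medians of 0.93 under morphine, with 4 above 0, and 0.32 under saline, with 3 above 0. Of 2 tested B cell markers 0 passed by either tool and 0 had an unadjusted p under 0.05, and the whole list summed to 0.268 to 5.63. The 2 had medians of -0.49 under morphine, with 0 above 0, and 0.31 under saline, with 2 above 0. One of the tested markers is Cd79a, which followed Cd74 over mice (r = 0.846, a description). The B cell gene Ms4a1 had at most 2 counts in any mouse, and its 0 in all 4 Kdm7a-shRNA + Morphine mice is not informative at this depth. Of 3 tested dendritic cell markers Itgax, which microglia also express, rose under morphine (log2 fold change 2.13, adjusted p = 0.0173) and saline (2.44, adjusted p = 0.00650), and Flt3 and Zbtb46 were not called. Among markers of the tissue's other cells, 1 of 7 endothelial markers passed and was higher under morphine and 3 under saline, against the same shares passing. Log2 fold changes were above 0 for 6 of the 7 under morphine (median 0.34) and 7 under saline (median 0.64). Of 5 astrocyte markers, 2 passed and were higher under saline (Aldh1l1 and Gfap), against 16.7% of all tested genes passing. There 4 of the 5 were above 0, with a median of 0.77. Under morphine 0 of the 5 astrocyte markers passed edgeR's test, 3 had an unadjusted p under 0.05 and 2 passed DESeq2's. All 5 were above 0 there, with a median log2 fold change of 0.61. Without 1 mouse the endothelial counts ran from 0 to 2 under morphine and 0 to 3 under saline, and the astrocyte counts from 0 to 2 in both. Neuronal and oligodendrocyte markers held no call by edgeR's test in either treatment, and DESeq2 called 1 neuronal marker under saline. At an unadjusted p under 0.05 were 0 and 1 of 6 neuronal and 1 and 0 of 5 oligodendrocyte markers under morphine and saline. Of the 5 oligodendrocyte markers, 5 were above 0 under morphine (median 0.35) and 4 under saline (median 0.34). Of the 6 neuronal markers, 2 and 1 were above 0, with medians of -0.04 and -0.2. The part of these cells in the class I and class II values was not tested.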

How the data were processed

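RNA of the mPFC of 16 mice was sequenced by Nanopore cDNA-PCR (SQK-PCS109). The authors kept reads of at least 500 bp and quality 7, removed ribosomal reads, mapped full-length reads to mm10 with minimap2, clustered them with Pinfish and cDNA Cupcake, and counted reads of match quality above 5. The submitters' processing notes also name edgeR 3.8.6. The deposited counts are reads per gene without normalization, and the deposited CPM are those counts scaled to each mouse's total, which were not tested. How strand and reads shared by paralogs were counted is not given in the sources used here.

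Counts were filtered with filterByExpr, scaled with TMM factors and fitted in 1 model of 4 groups with edgeR 4.0.16 (R 4.3.3), and its quasi-likelihood test was adjusted by the Benjamini-Hochberg method over 18826 genes. A gene passed with a fold change of 1.5 or more and an adjusted p below 0.05. Correlations used two-sided permutation tests, in which mice were exchanged within groups 100000 times and for which 1e-05 is the smallest p. Alternatives were DESeq2 1.42.0, other scalings, filters and sample sets, and each mouse left out. The pipeline was tested on simulated data. Total counts per mouse were 6596991 to 12418112. Whether mice of a group were handled separately beyond being different animals is not stated, so p-values measure the spread between these samples. The labels do not say that replicate numbers pair mice.

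The genes and lists were chosen with earlier results of these data known, and the averaged knockdown comparison was added with the data in view. Named genes were all 10 members, the pathway genes that passed (up to 3 per subgroup and comparison, by adjusted p), markers beside which a result stands, and the 5 genes most correlated with B2m and with Cd74. Tap1, Tap2, Nlrc5, Rfx5, Irgm1's fold change, Ifi27l2a, Itgax, Flt3, Zbtb46, Aldh1l1, Gfap, Nrf1, Cxcl9, Cd79a, Mzb1 and Ms4a1 were named after their values were seen. Promoter windows are from RefSeq (GRCm38.p6) and positions from GENCODE vM21. Cd74's promoter and those of H2-Ab1 and Ciita were not used here.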

Additional observations from a re-analysis of the deposited data

Results flagged for a closer look

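Of 30 groups of values of the 10 genes that could be tested, 1 held a mouse that stood apart from the others of its group by Dixon's criterion at 95%. Ciita in Ctrl + Morphine replicate 1 was at 1.098 normalized CPM (11 counts), against 0.320 to 0.365 (3 counts each) in the other 3 mice of the group, a gap of 0.942 of the group's range. Chance gives such a mouse in about 1 in 20 groups.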

How the results depend on the processing

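Of the counts of the 10 genes called with the hairpin under morphine (1 as reported), 2 were called with RLE size factors, 2 without a filter, 3 by DESeq2 and 0 in a fit of the compared groups alone, and leaving out 1 mouse gave 0 to 7. Under saline (2 as reported), 1 was called with library size only, 1 with at least 10 counts in every mouse, 5 in a fit of the compared groups alone and 4 by DESeq2, and leaving out 1 mouse gave 0 to 5. With the replicate number as a block (replicate block) 5 were called under saline, but same-numbered mice of different groups were not paired by the labels, and their deviations correlated at -0.091 to 0.366, with 5 of 21 pairs above 0.1. The averaged effect gave 5 to 9 without 1 mouse. Of the 43 pathway genes, the count under morphine (7 as reported) was 4 with at least 10 counts in every mouse, 0 in a fit of the compared groups alone and 11 by DESeq2, and 1 was called for the interaction by DESeq2. Fits of fewer groups and mice have fewer degrees of freedom, and the cause of the other differences was not tested.

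Values that changed sign were all uncalled. Without 1 mouse they ranged from -0.25 to 0.49 for H2-K1, -0.28 to 0.42 for H2-D1 and -0.07 to 0.22 for Tapbp (morphine under the control virus), from -0.29 to 0.84 for Cd74, -0.04 to 1.20 for H2-Aa and -0.13 to 0.97 for H2-Eb1 (morphine under knockdown), from -0.37 to 0.30 for B2m and -0.35 to 0.18 for H2-T23 (interaction), and from -0.35 to 0.35 for Ciita (averaged effect). With the replicate block B2m was at -0.13 (interaction) and Ciita at 0.31 (averaged). Of the other settings' values for single genes, 370 kept direction and call, 13 gained and 6 lost the call. Scaling by library size only lowered the all-gene median of the log2 fold change to -0.111 under morphine and -0.117 under saline, with 394 higher and 1246 lower calls under morphine (538 and 910 as reported) and 967 and 2342 under saline (1398 and 1753). Ciita's 1 to 20 counts per mouse limit its values.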
